A study of Mus musculus with 96 samples.

Results

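Trp53, the mouse gene of the transcription factor p53, and 9 of its target genes were followed in single EL4 cells in which CTCF had been knocked down. The 10 genes were taken by symbol from the 24057 genes of the deposited TPM table, as Trp53, Mdm2, Cdkn1a, Ccng1, Bax, Bbc3, Pmaip1, Trp53inp1, Zmat3 and Phlda3. EL4 is a T-lymphoma line from the C57BL/6 mouse. All cells were infected with viral particles carrying GFP and a short hairpin RNA and were sorted for GFP 5 days after infection. Control cells (WT) carried a hairpin against luciferase (shLuc) and CTCF-KD cells a hairpin against Ctcf (shCTCF). The knockdown was done 2 times, with 1 shLuc and 1 shCTCF culture each time, numbered #1 in experiment 1 and #2 in experiment 2. From each culture 24 cells were sequenced, captured on a separate Fluidigm C1 circuit, so culture and circuit cannot be told apart. The study's methods list 2 hairpins against Ctcf, and the labels do not say which culture carried which, so experiment and hairpin cannot be told apart. After 1 shLuc #2 cell with 81 detected genes was left out, 47 WT and 48 CTCF-KD cells remained.

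p53 is held at a low level in unstressed cells, chiefly by the ubiquitin ligase Mdm2, whose gene is itself a p53 target. When DNA is damaged the protein is stabilised, binds a response element made of paired copies of a short half-site, and activates genes that stop the cell cycle or start apoptosis. Since this control acts mainly on the protein, the mRNA of Trp53 need not follow p53 activity. In the T-cell lineage p53 is known for the apoptosis of thymocytes after irradiation and as a suppressor of T-cell lymphoma.

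Recovered from the TPM values, the reads numbered 6192121 and 5493040 in the WT cultures #1 and #2 and 5606532 and 3232422 in the CTCF-KD cultures, with 41591 to 405404 reads in a cell. The median number of genes detected was 4771 and 4635 in the shLuc cultures and 6172.5 and 5656 in the shCTCF cultures. All 10 T-cell markers had reads. Cd247, the lowest, had culture means of 0.349 to 10.1 TPM, with reads in 3 to 6 cells of a culture. The B-cell markers Ms4a1 and Cd79b and the myeloid markers Lyz2 and Cd14 were at 0 in every cell. Of the other markers, Cd68, a lysosomal protein of myeloid cells, had reads in 4 to 6 cells of each culture. Its means over all cells of a culture were 27.6 to 52.01 TPM. Cd79a, Csf1r, Itgam, Col1a1 and Col1a2 had reads in at most 3 cells of a culture. The T-cell markers summed to 8998 and 9033 TPM in WT and 7226 and 7005 TPM in CTCF-KD, and the markers of other cell types to 56.2 and 52.8 TPM and to 49.8 and 34.6 TPM, and the part of these levels in the results was not tested. The mean of Ctcf was 60.3 TPM in shLuc #1 and 15.96 TPM in shCTCF #1, against 37.1 TPM in shLuc #2 and 44.9 TPM in shCTCF #2. On the log2 scale Ctcf was thus lower by 1.85 in experiment 1 and higher by 0.27 in experiment 2, so these cells do not show a lower Ctcf mRNA level in the culture labelled shCTCF #2. The study checked CTCF in the sorted populations by qPCR and Western blotting, data that are not used here. It reported lower Ctcf mRNA and CTCF protein in both shCTCF #1 and shCTCF #2 than in shLuc. Since the Ctcf change in these cells differed between the experiments, each gene is given in each experiment as well as over the 4 cultures.

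The starts of the genes were inspected for the p53 half-site through which p53 binds DNA. RefSeq windows on GRCm38.p6, from 250 bases before to 50 bases after a start, were at hand for 7 of the 10 genes, in 10 windows. The p53 half-site consensus of 10 bases, which reads the same on both strands, was found in windows of 5 genes, against 8.36% of all 32851 windows. Of the 7 genes with a window, Cdkn1a alone had a pair of half-sites no more than 13 bases apart, as 0.0731% of all windows had. The stretches before the start are shown 5′ to 3′ on the strand of the gene, with the half-sites in capitals.
Cdkn1a: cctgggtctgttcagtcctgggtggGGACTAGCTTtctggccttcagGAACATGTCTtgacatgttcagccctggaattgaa
Trp53: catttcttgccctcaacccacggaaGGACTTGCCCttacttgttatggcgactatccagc
Mdm2: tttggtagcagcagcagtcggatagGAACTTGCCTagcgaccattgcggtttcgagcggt
Ccng1: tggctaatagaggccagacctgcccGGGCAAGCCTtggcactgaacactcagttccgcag
Bax: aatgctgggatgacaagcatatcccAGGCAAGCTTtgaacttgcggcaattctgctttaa
These lie at chr17:29090881-29090962 (plus strand), chr11:69580259-69580318 (plus), chr10:117710910-117710969 (minus), chr11:40755437-40755496 (minus) and chr7:45467065-45467124 (minus). The first base of the half-site was 73 and 51 bases before the start in the upstream window of Cdkn1a. It was 75 bases before the start in Trp53, 186 in Mdm2, 185 in Ccng1 and 201 in Bax. The letters are a description of these windows only. No match was found in the other window of Cdkn1a (chr17:29093519-29093818), in the 3 windows of Bbc3 or in the window of Phlda3.

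Trp53 mRNA was abundant and was lowest in shLuc #1. The gene lies at chr11:69580359-69591873 on the plus strand. Its TPM over cells had a lowest value of 0, a median of 131 and a highest value of 684 in shLuc #1. The corresponding values were 0, 451 and 2085 in shLuc #2, 0, 538 and 1544 in shCTCF #1, and 64.4, 669.6 and 1359 in shCTCF #2. The cells of the 4 cultures overlapped widely, but 6 of 24 cells in shLuc #1 had no read of Trp53, against 1 cell in each of shLuc #2 and shCTCF #1 and no cell in shCTCF #2.

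The culture means of Trp53 were 208 and 534 TPM in shLuc #1 and #2 and 625 and 662 TPM in shCTCF #1 and #2. Both CTCF-KD cultures were above both WT cultures, and the 2 WT cultures differed more from each other than shLuc #2 did from either CTCF-KD culture. The change of log2(mean TPM + 1), CTCF-KD minus WT, was 1.58 in experiment 1 and 0.31 in experiment 2. Over the 4 cultures it was 0.94 (SE 0.47, n = 2 cultures per condition), with an adjusted p of 0.697 in limma over 11980 genes. Without shLuc #1 the change was 0.27. Wrap53, the neighbouring gene on the opposite strand, which encodes a telomerase cofactor, was likewise lowest in shLuc #1, at 1.68 TPM, against 26.8 TPM in shLuc #2, 22.8 TPM in shCTCF #1 and 28.8 TPM in shCTCF #2, with reads in 1, 6, 9 and 8 cells. The strand setting of the counting is not given in the sources used here, so reads from places where both genes might be transcribed cannot be told apart.

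None of the 9 target genes or Trp53 passed the test on levels, and no gene of the table did. In limma at an adjusted p of 0.05, the share called was 0% higher and 0% lower of 11980 genes, with 574 genes higher and 338 lower at an unadjusted p under 0.05. The fit covered 9 of the 10 genes, as Phlda3 had no reads, and 0 of the 9 had an unadjusted p under 0.05. When the mean of log2(TPM + 1) over cells was tested in its place, 3 of the 9, Trp53, Mdm2 and Bax, had an unadjusted p under 0.05, as had 1811 genes higher and 178 lower of all, and 0 of the 9 passed after adjustment. The median log2 change of the 9 genes was 0.54, against 0.04 over all genes tested. With the mean of log2(TPM + 1) over cells these medians were 0.30 and 0.23, so the contrast depended on the summary used. Trp53, Mdm2, Cdkn1a and Bax were higher in both CTCF-KD cultures than in both WT cultures, an order that 19.9% of all genes tested had. Zmat3 was lower in both, an order seen in 16.9% of all genes. Single values of culture means were also compared by the exact two-sided permutation test, in which 2 cultures against 2 cannot give a p below 0.333.

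**Figure D1:**
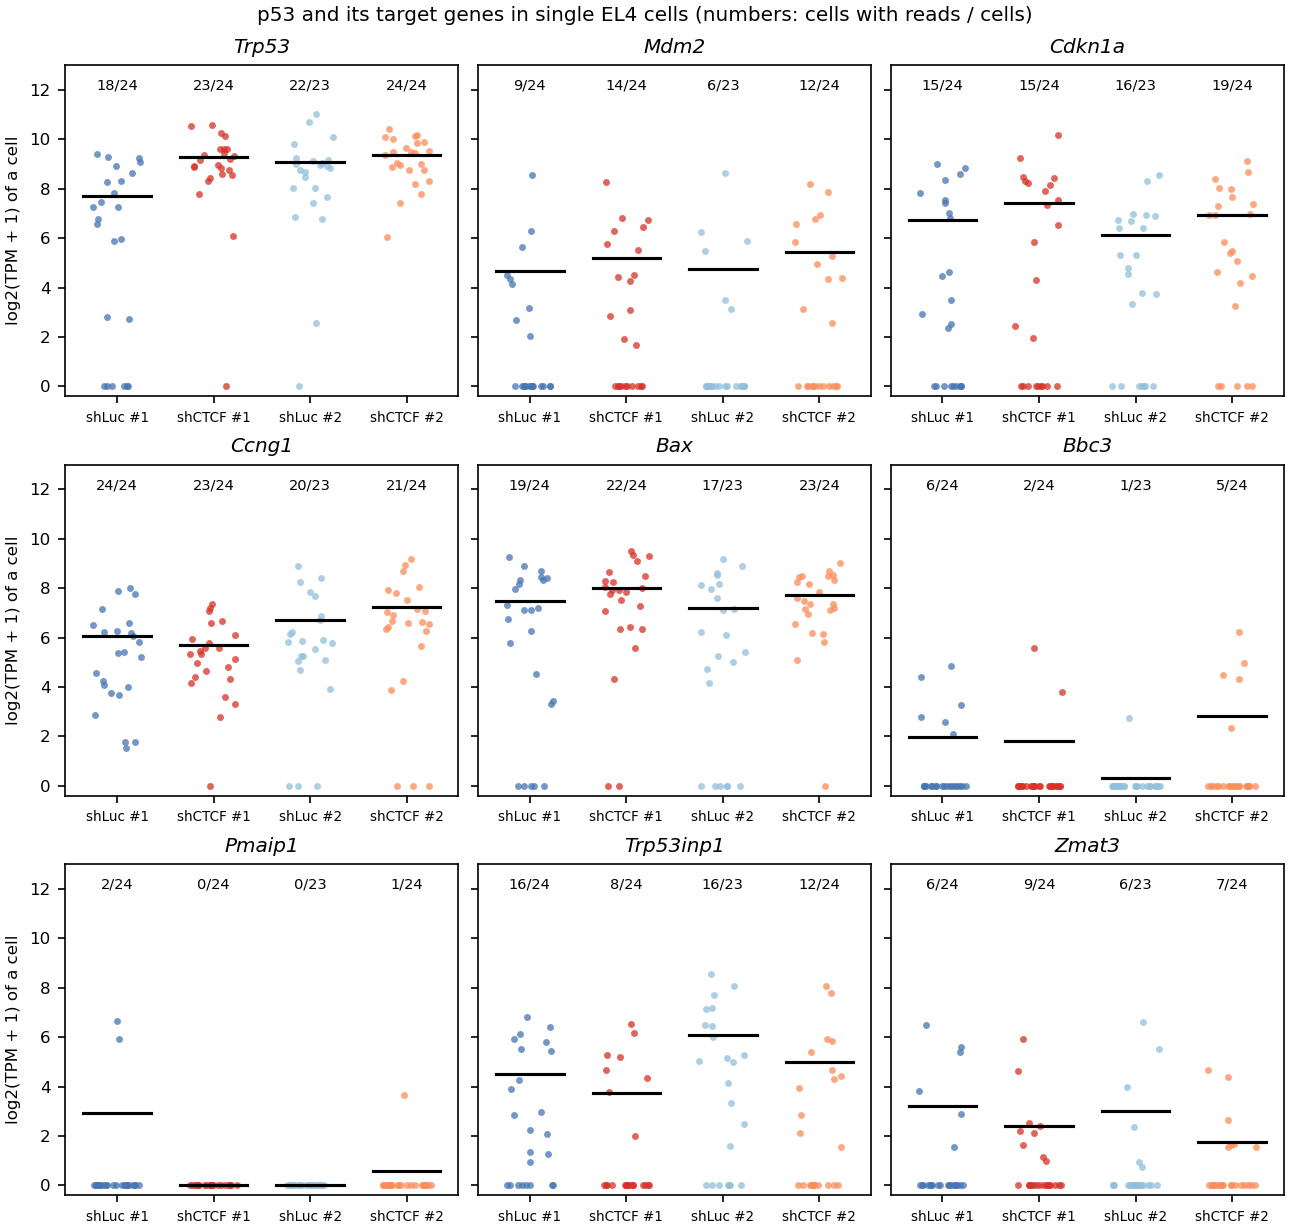
Each point is log2(TPM + 1) of a gene in a cell, by culture, for the 9 genes with reads, and the black line is log2(mean TPM + 1) of the culture. The numbers above the points give cells with reads of all cells. In Trp53 the shLuc #1 line lies lowest, and 6 of its 24 cells lie at 0.

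Mdm2, the ubiquitin ligase that targets p53 for degradation, was read in few cells (chr10:117688875-117710758, minus strand). Its median over cells was 0 TPM in shLuc #1 and shLuc #2, 4.53 TPM in shCTCF #1 and 2.47 TPM in shCTCF #2. The lowest cell was at 0 in each culture, and the highest cell reached 378, 394, 307 and 291 TPM in the same order. The highest values were thus in WT cells, whereas more CTCF-KD cells had any read.

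The culture means of Mdm2 were 24.1 and 25.6 TPM in WT and 36.05 and 42.8 TPM in CTCF-KD. It differed on the log2 scale by 0.56 in experiment 1 and by 0.72 in experiment 2, and by 0.64 (SE 0.52) over the 4 cultures, with a limma adjusted p of 0.814. Of the summed TPM of Mdm2, 65.4% in shLuc #1 and 66.7% in shLuc #2 came from 1 cell, against 35.5% in shCTCF #1 and 28.3% in shCTCF #2. When the highest cell of each culture was left out, an alternative chosen after seeing the data, the change was 1.56 with a limma adjusted p of 0.454.

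Cdkn1a, which encodes the cyclin-dependent kinase inhibitor p21 and arrests cells before DNA replication, was at intermediate levels (chr17:29090976-29100727, plus strand). Its lowest, median and highest TPM over cells were 0, 8.41 and 505 in shLuc #1 and 0, 26.4 and 381 in shLuc #2. In CTCF-KD they were 0, 37.4 and 1166 in shCTCF #1 and 0, 49.9 and 556 in shCTCF #2. In both CTCF-KD cultures the median and the highest cell were above those of both WT cultures, with wide overlap of the cells.

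The means of Cdkn1a were 106 and 69.5 TPM in WT and 172 and 123 TPM in CTCF-KD. Its log2 change was alike in the experiments, at 0.69 and 0.81, and was 0.75 (SE 0.41) over the cultures, with a limma adjusted p of 0.743. Relative to the reads of the culture, the ratio of CTCF-KD to WT reads was 1.71 (95% interval 1.55 to 1.89) in experiment 1 and 1.93 (1.65 to 2.25) in experiment 2. No molecular identifiers are described, so these intervals cover the counting of reads only. They do not cover amplified copies of a molecule, the sampling of cells or differences between cultures.

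Ccng1 encodes cyclin G1, which recruits a phosphatase to Mdm2, and was the member read in the most cells, 88 of 95 (chr11:40748552-40755311, minus strand). Its lowest, median and highest TPM were 1.91, 41.2 and 254 in shLuc #1 and 0, 56.4 and 482 in shLuc #2. They were 0, 39.2 and 165 in shCTCF #1 and 0, 100.1 and 583 in shCTCF #2. The culture shCTCF #1 was the lowest of the 4 and shCTCF #2 the highest.

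For Ccng1 the culture means were therefore not ordered by condition, at 66.9 and 103 TPM in WT and 51.5 and 152 TPM in CTCF-KD. Its log2 change of -0.37 in experiment 1 and of 0.55 in experiment 2 gave 0.09 (SE 0.59) over the cultures with a limma adjusted p of 0.985. The read ratio was 0.728 (95% interval 0.653 to 0.812) in experiment 1 and 1.49 (1.36 to 1.63) in experiment 2. These intervals cover the counting of reads only, and in shLuc #2 1 cell held 325 of the 974 reads.

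Bax, the effector of the Bcl2 family that opens the outer mitochondrial membrane, was the most abundant of the target genes (chr7:45461697-45466898, minus strand). Its lowest, median and highest TPM were 0, 138 and 618 in shLuc #1, 0, 67.7 and 573 in shLuc #2, 0, 237 and 729 in shCTCF #1, and 0, 170.1 and 520.0 in shCTCF #2. Either CTCF-KD median was above either WT median, although the highest cell of shCTCF #2 was the lowest of the 4 maxima.

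The means of Bax were 176 and 147 TPM in WT and 258 and 212 TPM in CTCF-KD, with a log2 change of 0.55 in experiment 1 and 0.52 in experiment 2. Over the cultures it was 0.54 (SE 0.33), with a limma adjusted p of 0.772. In the cells with 4500 to 6500 detected genes alone, where the conditions overlap in that number, the change was 0.21. The part of the number of genes detected in the difference was not tested beyond this. A readthrough gene, Gm45808, overlaps Bax on the same strand in the annotation and is not among the genes used here.

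The BH3-only genes were near the limit of detection. Bbc3, which encodes Puma (chr7:16308393-16318205, plus strand), had 18 reads in shLuc #1, 1 in shLuc #2 and 14 in each CTCF-KD culture, in 14 of the 95 cells. Its mean was 2.95 and 0.244 TPM in WT and 2.49 and 6.17 TPM in CTCF-KD. The read ratio was 0.859 (95% interval 0.395 to 1.83) in experiment 1, and in experiment 2 it rested on the 1 WT read, at 23.8 (3.62 to 1006). Both intervals cover the counting of reads only. The log2 change over the cultures was 1.17 (SE 0.92), with a limma adjusted p of 0.799. Pmaip1, which encodes Noxa, had 61 reads in 2 cells of shLuc #1, 2 reads in 1 cell of shCTCF #2 and none in the other 2 cultures. No fold is given for so few cells.

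Trp53inp1 encodes a nuclear and autophagy protein that promotes p53 activity (chr4:11156431-11174379, plus strand). Its lowest, median and highest TPM were 0, 3.48 and 111 in shLuc #1 and 0, 30.9 and 375 in shLuc #2. The values were 0, 0 and 92.1 in shCTCF #1 and 0, 0.946 and 271 in shCTCF #2. The median of both CTCF-KD cultures was below that of both WT cultures.

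The means of Trp53inp1 were 21.9 and 67.1 TPM in WT and 12.3 and 30.6 TPM in CTCF-KD, so that shLuc #1 lay between the CTCF-KD cultures. In log2 the change amounted to -0.78 in experiment 1 and to -1.11 in experiment 2, and to -0.95 (SE 0.78) over the cultures, with a limma adjusted p of 0.815. The read ratio was 0.658 (95% interval 0.552 to 0.784) and 0.579 (0.504 to 0.663) in experiments 1 and 2. These intervals cover the counting of reads only, and in shCTCF #2 1 cell held 104 of the 285 reads. Without shLuc #2 the change over the cultures was -0.16, and without shCTCF #1 it was -0.32.

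Zmat3, an RNA-binding zinc finger protein, and Phlda3, an inhibitor of Akt, were the least abundant targets beside the BH3-only genes. Zmat3 (chr3:32334792-32366014, minus strand) had a lowest and a median value of 0 TPM in all 4 cultures, and its highest cell was at 88.8 and 96.1 TPM in WT and at 59.4 and 24.2 TPM in CTCF-KD. Its means were 8.24 and 6.998 TPM in WT and 4.30 and 2.39 TPM in CTCF-KD, so both CTCF-KD cultures were below both WT cultures. Experiment 1 had a log2 change of -0.80 and experiment 2 of -1.24, with -1.02 (SE 0.87) over the cultures, with a limma adjusted p of 0.818. Taken as the mean of log2(TPM + 1) over cells, the change was -0.11. Between 42.3% and 59.7% of the summed TPM of Zmat3 in a culture came from 1 cell. Phlda3 (chr1:135766119-135769136, plus strand) had 0 reads in 95 cells, which allows a share of up to 3.16% of cells with a read.

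**Figure D2:**
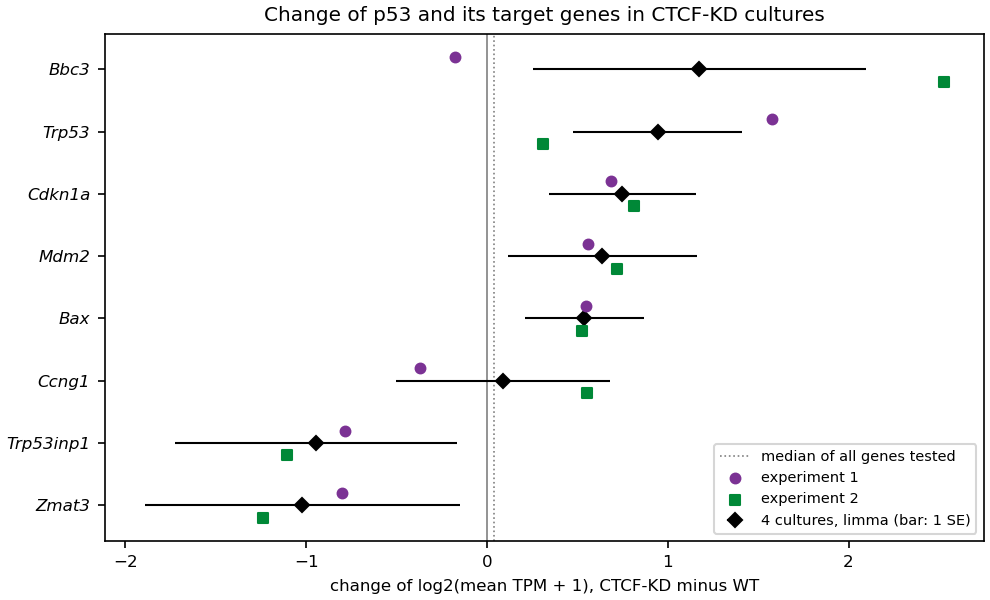
The change of log2(mean TPM + 1), CTCF-KD minus WT, for 8 genes. Diamonds with bars are the limma estimate over 4 cultures and its SE, circles are experiment 1, squares are experiment 2, and the dotted line is the median of all genes tested, 0.04. Circles and squares lie on the same side of 0 for 6 genes and on opposite sides for Ccng1 and Bbc3. Pmaip1, which is not shown, also had opposite directions. Of all genes tested, 56.8% had the same direction in both experiments.

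Averaged over the 4 cultures, Trp53 was at 507 TPM, Bax at 198 TPM, Cdkn1a at 118 TPM and Ccng1 at 93.4 TPM, a scale that is adjusted for gene length. Cdkn1a and Ccng1 did not differ beyond the spread of the cultures, as Ccng1 was above Cdkn1a in shLuc #2 and shCTCF #2. Trp53inp1 at 32.96 TPM and Mdm2 at 32.2 TPM were closer together than the cultures of either gene. Zmat3 followed at 5.48 TPM, Bbc3 at 2.96 TPM and Pmaip1 at 1.79 TPM, and their cultures overlapped. Trp53 stood at the 97.3 percentile of the genes tested and Bax at the 92.2 percentile.

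Detection, the share of cells with a TPM above 0, was higher in both CTCF-KD cultures for 4 members, lower in both for 1 and overlapping for the other 5. Over all genes tested, 36.2% were detected in a higher share of cells in both CTCF-KD cultures than in both WT cultures, and 5.96% in a lower share. Trp53, Mdm2, Bax and Zmat3 had the first order, a share near that of all genes, and Trp53inp1 had the second. For each of these 5 genes the exact two-sided permutation test gave p = 0.333, which is the smallest that 2 cultures against 2 allow.

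Mdm2 was detected in 37.5% and 26.1% of cells in shLuc #1 and #2 and in 58.3% and 50% in shCTCF #1 and #2, a difference of 22.4 points. Bax was detected in 79.2% and 73.9% of WT cells and in 91.7% and 95.8% of CTCF-KD cells, and Trp53 in 75% and 95.7% of WT cells and 95.8% and 100% of CTCF-KD cells. The difference of Trp53 was 12.6 points, and 2.26 points without shLuc #1. The exact 95% binomial interval of Mdm2 was 18.8% to 59.4% in shLuc #1 and 36.6% to 77.9% in shCTCF #1, so single shares are loose. Zmat3 was detected in 25% and 26.1% of WT cells and 37.5% and 29.2% of CTCF-KD cells. Its share was thus higher in CTCF-KD while its mean was lower, and with a threshold of 10 TPM the difference was -6.52 points.

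Trp53inp1 was detected in 66.7% and 69.6% of WT cells and in 33.3% and 50% of CTCF-KD cells, a difference of -26.4 points, in cultures with more genes detected per cell. At an equal depth of 80000 reads per cell the shares were 53.6% and 65.01% in WT and 31.5% and 47.7% in CTCF-KD. This depth was reached by 23 of the 24 shCTCF #2 cells and by all kept cells of the other cultures. Values at equal depth leave out cells below it. In cells with 4500 to 6500 detected genes the difference was -32.5 points. For Mdm2 the difference was 20.03 points at equal depth and 22.9 points in those cells, and for Bax it was 24.96 and 8.12 points. Detection of Cdkn1a and Ccng1 overlapped between the conditions, at 62.5% to 79.2% and 86.96% to 100% of cells. The number of the 10 genes detected in a cell had a median of 5 in shLuc #1 and shCTCF #2 and 4 in the other cultures, with a range of 2 to 8.

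**Figure D3:**
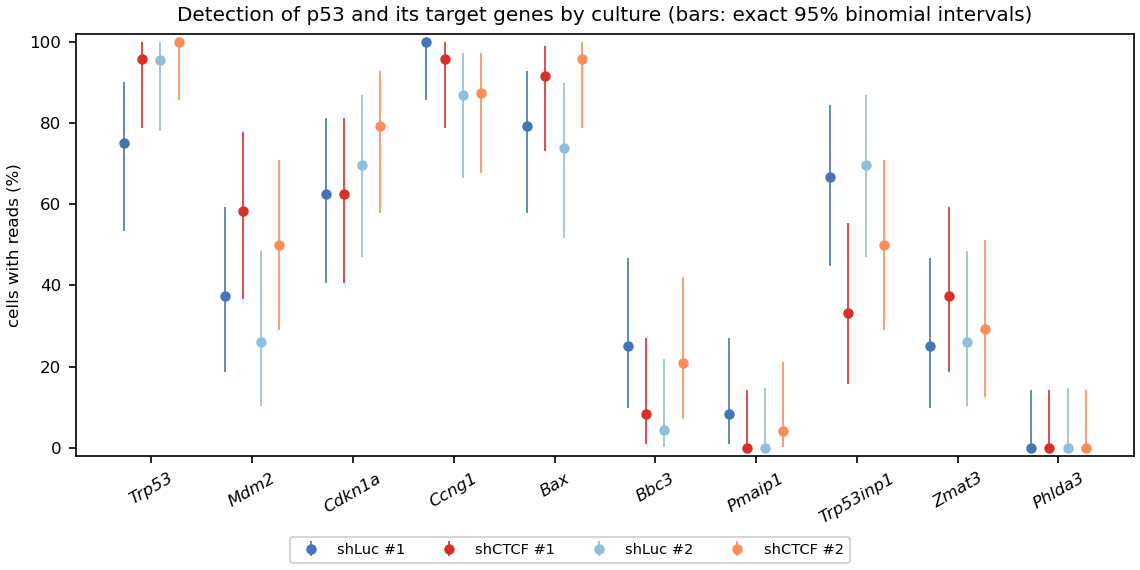
The share of cells with reads of each gene by culture, in percent, with exact 95% binomial intervals that cover the sampling of cells only. The shCTCF points lie above the shLuc points for Mdm2 and Bax and below them for Trp53inp1, and Phlda3 lies at 0 throughout.

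The spread over cells was taken as the SD of log2(TPM + 1) in a culture and was compared for the 6 members with a mean above 1 on that scale. Trp53 and Bax had the largest differences of the SD among the 6, before any allowance for the mean, both with a smaller spread in CTCF-KD. Over 7843 genes, limma at an adjusted p of 0.05 called 0.0383% with a higher and 0.625% with a lower spread in CTCF-KD, and 0 of the 6 members were among them. With the experiment as a replicate block, limma called 0 genes in either direction. Trp53 and Bax were the 2 members with an unadjusted p under 0.05. A lower spread in both CTCF-KD cultures than in both WT cultures was seen in 36.9% of all genes and a higher spread in 9.36%.

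The SD of Trp53 was 3.67 and 2.44 in shLuc #1 and #2 and 2.08 and 1.02 in shCTCF #1 and #2, a difference of -1.50 (SE 0.49) with a limma adjusted p of 0.165. That of Bax was 3.34 and 3.41 in WT and 2.499 and 1.83 in CTCF-KD, a difference of -1.21 (SE 0.33) with a limma adjusted p of 0.115. Neither passed when shLuc #1, shLuc #2 or shCTCF #2 was left out, with limma adjusted p of 0.0902 to 0.441 for Trp53 and 0.204 to 0.275 for Bax, and the difference of Trp53 was -0.89 without shLuc #1. Without shCTCF #1 the limma adjusted p was 0.0366 and 0.0442, in a fit where the spread came from the 2 WT cultures and the lone CTCF-KD culture was assumed to vary like them. The SD depends on the mean, and the 201 genes nearest in mean had a median SD of 2.56 and 1.49 in WT and 0.913 and 1.02 in CTCF-KD around Trp53. Less this expected SD, the difference was -0.45 for Trp53 and -0.17 for Bax. On the linear scale the CV of TPM of Trp53 was 1.10 and 0.938 in WT and 0.634 and 0.521 in CTCF-KD.

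The SD of the other members differed less than that of Trp53 and Bax, before any allowance for the mean. The SD of Mdm2 was 2.57 and 2.64 in WT and 2.88 and 3.10 in CTCF-KD, a difference of 0.39 (SE 0.31) with a limma adjusted p of 0.598. Cdkn1a had an SD of 3.57 and 3.08 in WT and 3.93 and 3.09 in CTCF-KD, and it lay above the SD expected from its mean in all 4 cultures. Ccng1 had an SD of 1.91 and 2.496 in WT and 1.62 and 2.65 in CTCF-KD, below the expected SD in all but shCTCF #2. The difference for Trp53inp1 was -0.22 (SE 0.34). Less the expected SD, the difference was 0.64 for Cdkn1a, the largest of the 6 members. It was 0.42 for Ccng1, 0.38 for Trp53inp1 and 0.26 for Mdm2, and these values were not tested.

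**Figure D4:**
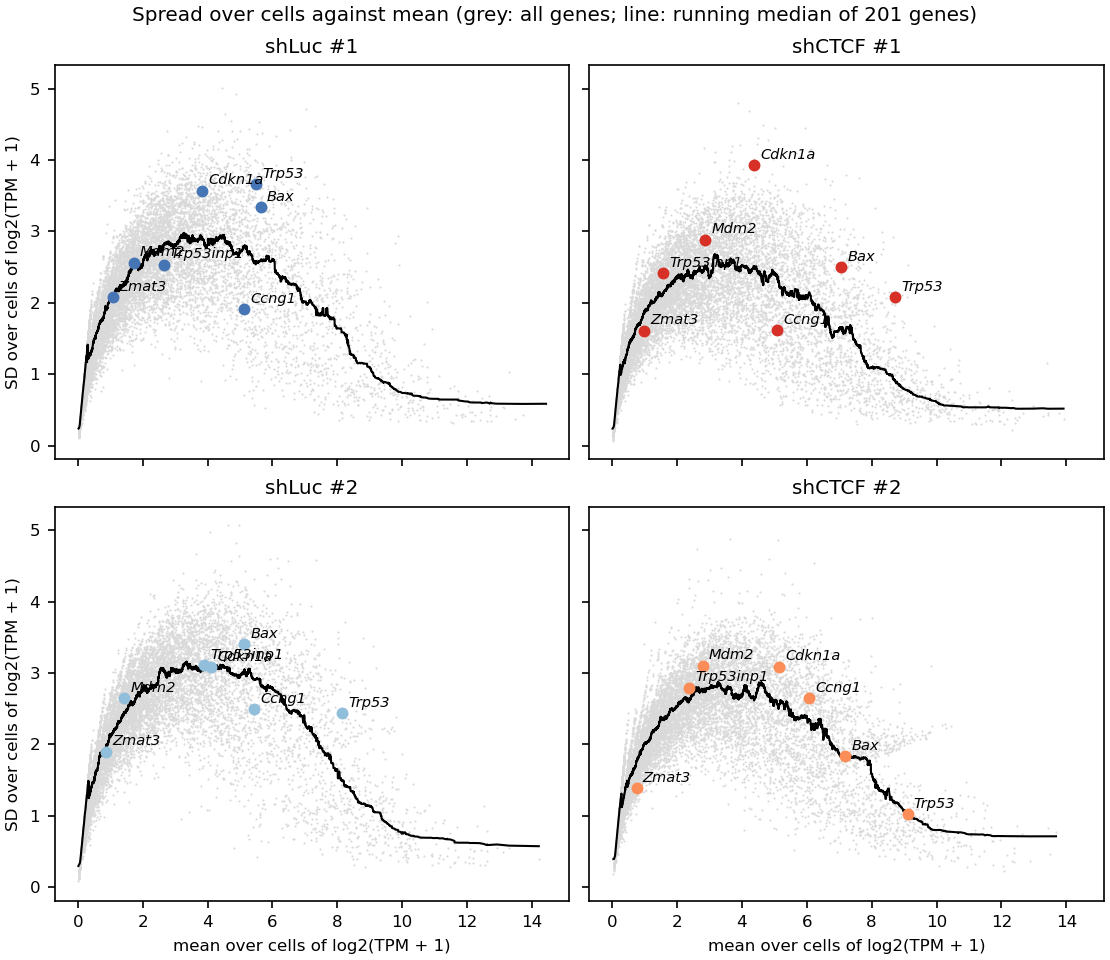
The SD over cells of log2(TPM + 1) against its mean, by culture. Grey points are all genes, the line is the running median of 201 genes, and coloured points are 7 of the 10 genes. Trp53 lies above the line in 3 cultures and at it in shCTCF #2, where its SD was 1.02.

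Pooled over the 4 cultures, cells with reads of Cdkn1a more often had reads of Mdm2 and Zmat3. Cells of a culture are not independent, so the pooled shares are a description. Of the 65 cells with Cdkn1a, 53.8% had reads of Mdm2 and 38.5% of Zmat3, against 20% and 10% of the 30 cells without it. The order for Mdm2 held in shLuc #1, with 8 of 15 against 1 of 9 cells, in shCTCF #1, with 11 of 15 against 3 of 9, and in shCTCF #2, with 12 of 19 against 0 of 5. In shLuc #2 the shares were close and in the other order, at 4 of 16 against 2 of 7 cells. Trp53inp1 was detected in 60% of cells with Cdkn1a and 43.3% of those without it. Trp53 was detected in 92.3% and 90% of these cells, Ccng1 in 92.3% and 93.3%, and Bax in 84.6% and 86.7%.

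Pearson's r of log2(TPM + 1) was computed over cells in each culture and averaged over the 4 cultures for 21 pairs of 7 members. The highest means were 0.33 for Cdkn1a with Trp53inp1 and for Ccng1 with Trp53inp1, each positive in all 4 cultures, and 0.28 for Mdm2 with Cdkn1a, which was positive in 3. Trp53 mRNA had a mean r of -0.05 with Cdkn1a, -0.01 with Mdm2 and -0.09 with Trp53inp1. With Bax its r was -0.35 and -0.27 in WT and 0.56 and 0.54 in CTCF-KD. With Ccng1 it was -0.14 and -0.05 in WT and -0.31 and 0.70 in CTCF-KD. The median over the pairs was 0.12. These values rest on 23 or 24 cells a culture that share a circuit and differ in depth, and they are given as a description. Bax had a mean r of 0.44 with the number of genes detected in a cell, Trp53 of 0.28 and Cdkn1a of 0.10. By culture this r of Trp53 was 0.07 and -0.07 in WT and 0.62 and 0.48 in CTCF-KD. That of Bax was 0.34 and 0.37 in WT and 0.56 and 0.50 in CTCF-KD. The part of the number of genes detected in the r of Trp53 with Bax was not tested.

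**Figure D5:**
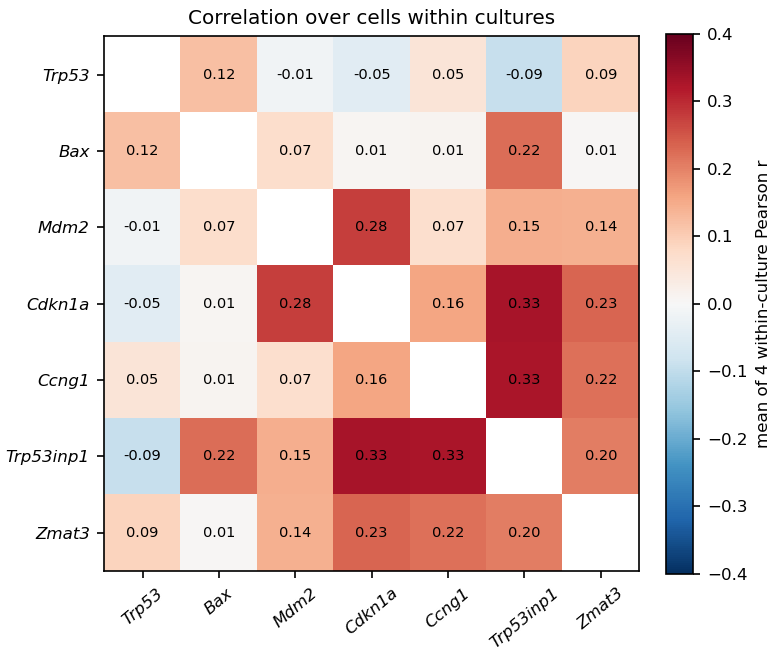
The mean of the 4 within-culture Pearson correlations of log2(TPM + 1) over cells for 7 genes, from -0.09 to 0.33. The darkest cells are Trp53inp1 with Cdkn1a and with Ccng1. The row of Trp53 runs from -0.09 to 0.12, and for Ccng1 and Bax it averages values of opposite sign in different cultures.

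Among all genes with a mean of log2(TPM + 1) above 1, the pattern over cells most like that of Trp53 was that of Arpc5l, with a mean r of 0.50, followed by Tpd52l2 and Cisd3, each with 0.45. For Cdkn1a the closest were Abtb1 (0.41), Fnip1 (0.39) and Kdm2a (0.37). In likeness to Cdkn1a among 7842 genes, Trp53inp1 ranked 13, Mdm2 94, Ccng1 871, Bax 4175 and Trp53 5543.

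The regulators of p53 were next compared, as 20 genes of which 17 were tested and 0 called in either direction by limma, with 0 at an unadjusted p under 0.05. Their median log2 change was -0.31, with 4 genes higher and 7 lower in both experiments. Over all genes tested, 30.1% were higher and 26.7% lower in both experiments. Hipk2, a kinase that phosphorylates p53, had means of 16.6 and 40.1 TPM in WT and 11.5 and 3.90 TPM in CTCF-KD. Ep300, an acetyltransferase and coactivator of p53, had means of 23.9 and 23.01 TPM in WT and 9.77 and 13.5 TPM in CTCF-KD, a log2 change of -0.97 (SE 0.69). Rpl5, a ribosomal protein that binds Mdm2, had a log2 change of 0.86 (SE 0.70), a value that is uncertain because near-identical gene copies can share its reads. The relatives Trp63 and Trp73 were at 0 in every cell.

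Of 32 further p53 targets, 28 were tested and 0 called by limma, with 1 higher and 1 lower at an unadjusted p under 0.05. In both experiments 7 were higher and 8 lower, shares close to those of all genes, and the median log2 change was 0.14. Aen, a nuclease of apoptotic cells, had means of 28.2 and 1.71 TPM in WT and 55.5 and 31.7 TPM in CTCF-KD, and was read in 3 and 4 WT cells against 18 and 14 CTCF-KD cells. Its log2 change was 2.27 (SE 1.17), with a limma adjusted p of 0.712. Xpc, which recognises damaged DNA, was read in 3 and 5 WT cells against 14 and 10 CTCF-KD cells, with a log2 change of 0.87 (SE 0.86). Detection was higher in both CTCF-KD cultures than in both WT cultures for 9 of the 28 targets and 36.2% of all genes. Ccng2, which encodes cyclin G2, had means of 59.4 and 93.1 TPM in WT and 10.7 and 28.8 TPM in CTCF-KD, a log2 change of -2.02 (SE 0.64) with a limma adjusted p of 0.597. Sesn2, a stress-induced inhibitor of mTORC1 signalling, had a log2 change of -2.77 (SE 1.38), and in shCTCF #2 it was read in 1 cell.

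The rest of the Bcl2 family had 9 of 15 genes tested and 0 called by limma, with 0 higher and 1 lower at an unadjusted p under 0.05. Their median log2 change was -0.75, with 3 higher and 5 lower in both experiments, beside 30.1% and 26.7% of all genes tested. The BH3-only genes Bad and Bid were above WT in both CTCF-KD cultures, the order that 19.9% of all genes had. Bad had means of 90.1 and 96.7 TPM in WT and 181 and 133 TPM in CTCF-KD, and Bid of 84.6 and 126 TPM and of 143 and 163 TPM. Bmf, another BH3-only gene, had means of 12.8 and 9.25 TPM in WT and 1.15 and 0.615 TPM in CTCF-KD, a log2 change of -2.67 (SE 0.84) with a limma adjusted p of 0.595. The antiapoptotic Mcl1 had means of 67.3 and 114 TPM in WT and 36.7 and 43.8 TPM in CTCF-KD, a log2 change of -1.11 (SE 0.47).

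The partners of Cdkn1a and other G1 regulators, 17 genes with 16 tested, had a median log2 change of 0.31, with 0 called by limma and 2 higher and 1 lower at an unadjusted p under 0.05. Ccne1, the cyclin whose kinase p21 inhibits, had means of 9.62 and 18.7 TPM in WT and 92.6 and 62.2 TPM in CTCF-KD. It was read in 4 cells of each WT culture and in 19 and 11 CTCF-KD cells. Higher detection in both CTCF-KD cultures than in both WT cultures was seen for 7 of the 16 genes and 36.2% of all genes. The log2 change of Ccne1 was 2.41 (SE 0.59), with a limma adjusted p of 0.585, the smallest of all genes tested. Pcna, the replication clamp that p21 binds, had means of 60.4 and 126 TPM in WT and 169 and 157 TPM in CTCF-KD. Rb1, the pocket protein that p21 keeps active, had means of 26.2 and 50.4 TPM in WT and 8.24 and 19.7 TPM in CTCF-KD, and E2f1, the factor it restrains, had a log2 change of -1.10 (SE 0.84).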

How the data were processed

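The authors mapped the reads of 96 cells to GRCm38 with STAR, used unique alignments, counted on 24057 genes with HTSeq and deposited TPM, which is scaled by gene length and by the sum over the genes of a cell. The strand setting is not given in the sources used here. The members, gene lists and tests were chosen with earlier results of these data known.

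Cells under 3000 genes with TPM above 0 were left out (1 cell). Whole reads were recovered from the steps of the TPM values, with the step of each gene chosen so that its values lay within 0.001 of a whole number. That closeness is thus set by the method and is no check of the recovered reads. A gene without such a step would have been given 0 reads. For genes in 1 cell only (1336) the step could not be compared between cells. The recovered reads gave depth, read ratios and detection at 80000 reads, and their number sets the counting error of each value.

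The mean TPM of the cells of a culture was the unit of replication, since cells of a culture are not independent. Both cultures of a condition are labelled as separate knockdowns, so p-values measure the spread between 2 cultures per condition. Genes above 1 on the log2(TPM + 1) scale in 2 or more cells (11980) were tested with limma 3.58.1 in R 4.3.3, with a trend, on log2(mean TPM + 1), and Benjamini-Hochberg adjustment at 0.05. A fold change on this scale understates that of low genes. The SD of log2(TPM + 1) was tested likewise over 7843 genes with a mean above 1. Detection was compared by exact permutation over cultures, and intervals are exact at 95%. The scripts were tested on simulated data. Alternatives changed the summary of a culture, the pseudocount, filters, scaling, cells, and the cultures used.

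Named are the 10 members, Ctcf, of each pathway list the 2 highest and 2 lowest changes of the same sign in both experiments with a mean of at least 5 TPM, and the 3 genes most like Trp53 and Cdkn1a. Coordinates are from GENCODE M21 on GRCm38, and promoter windows from RefSeq. The position of Pmaip1 is not reported here.

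Same-numbered cultures belong to the same experiment by the study's methods. Their deviations from the condition means had a correlation of 0.175 over 11980 genes.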

Additional observations from a re-analysis of the deposited data

Results flagged for a closer look

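The changes of Ccng1 and Bbc3 had opposite directions in the experiments, and the difference between the experiments was not tested, as each holds 1 culture per condition. Ccng1 had a log2 change of -0.37 in experiment 1 and 0.55 in experiment 2. Bbc3 had a log2 change of -0.18 in experiment 1 and 2.53 in experiment 2, where shLuc #2 held 1 read of the gene. Pmaip1, read in 3 of 95 cells, also had opposite directions, and no fold is given for it.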

How the results depend on the processing

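Depth limits the low genes, with Bbc3 and Pmaip1 resting on few cells, and 2 cultures per condition limit every test. For the levels of 8 genes under 14 alternatives, 110 of 112 values kept their direction and none passed. Ccng1 turned without shCTCF #2 (-0.68) or shLuc #1 (-0.22), with a range of -0.68 to 0.86 over the cultures left out. Trp53 ranged from 0.27 to 2.10 and Bax from 0.21 to 1.73 over all alternatives. The mean of log2(TPM + 1) over cells called 44 genes higher and 2 lower, none of them a member. It moved the median of all genes from 0.04 to 0.23 and that of the 9 members tested from 0.54 to 0.30. No other alternative called a gene on levels. The experiment as a replicate block changed no call on levels.

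For spread, the CV of TPM, the replicate block and no minimum on the mean each gave 0 genes higher and 0 lower, and the SD over the mean gave 5 and 324. Leaving out a culture gave 8 to 47 genes higher and 8 to 254 lower, with 0 to 2 members called: Trp53 and Bax without shCTCF #1, as given above. In each such fit the spread comes from the condition with 2 cultures, and the lone culture is assumed to vary like them. By culture left out, the counts higher and lower were 8 and 11 without shLuc #1, 10 and 8 without shLuc #2, 47 and 104 without shCTCF #1, and 20 and 254 without shCTCF #2. The spread difference turned under the CV of TPM and the SD over the mean for Mdm2 (-1.38 and -0.60), Cdkn1a (-0.081 and -0.092) and Trp53inp1 (0.63 and 0.48). With a culture left out it ranged from -0.24 to 0.60 for Cdkn1a, -0.59 to 0.45 for Ccng1 and -0.50 to 0.069 for Trp53inp1.

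Detection differences turned for Zmat3 above 10 TPM (-6.52 points), for Ccng1 above 10 TPM (2.36) and at 80000 reads (4.27), and for Bbc3 in the same order (8.33 and 2.24). With a culture left out they ranged from -3.53 to 13.1 for Cdkn1a, -8.33 to 4.71 for Ccng1 and -10.4 to 10.2 for Bbc3. The causes were not tested.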
